A study of Homo sapiens with 30 samples.

Results

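SNAI1, SNAI2, TWIST1, ZEB1 and ZEB2, 5 transcription factors known as drivers of the epithelial-mesenchymal transition (EMT), were followed through the treatment of 5 breast cancer cell lines with BMP7. Every probe that carried one of these names, or the older symbols TCF8 for ZEB1 and ZFHX1B for ZEB2, was taken. This gave 7 of the 41000 probes of the array and 5 of the 17843 genes that could be named. SNAI2 and TWIST1 had 2 probes each and the other genes 1. The breast cancer cell lines HCC1954, MDA-MB-231, MDA-MB-361, T-47D and ZR-75-30 were treated for 30 min, 1, 3, 6, 12 or 24 h with recombinant human BMP7 at 50 ng/ml or with vehicle alone. On each of 30 arrays the BMP7-treated cells (Cy5) of a cell line and time were set against its vehicle-treated cells (Cy3). The cells of 3 cultures were pooled for a sample, no array was repeated and no dyes were swapped, so that the 6 arrays of a cell line are 6 time points and not replicates. The p-values therefore measure the spread between these arrays, in which time and technical error are mixed. A dye effect of a probe that is the same on all arrays cannot be told apart from a constant effect of BMP7. The media of MDA-MB-231 and T-47D departed from the usual recommendation in their serum, and for these an effect of serum cannot be told apart from that of the cell line.

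In EMT, epithelial cells lose their junctions and polarity and take on the motile shape of mesenchymal cells. The zinc finger proteins SNAI1 and SNAI2 and the zinc finger and homeodomain proteins ZEB1 and ZEB2 bind E-boxes in the promoters of epithelial genes, E-cadherin (CDH1) among them, and repress them. TWIST1 is a basic helix-loop-helix protein that binds E-boxes as a dimer with E proteins, and the ID proteins, well known targets of BMP signaling, hold E proteins away from DNA. In breast cancer these factors are known from cell lines of mesenchymal appearance such as MDA-MB-231, whereas T-47D, MDA-MB-361 and ZR-75-30 are luminal lines.

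All 30 arrays were closest in vehicle level to the other arrays of their own cell line. In both channels, between 51.7% and 68.1% of an array's probes were called well above background by the scanner software, and the lowest shares were those of MDA-MB-231 at 6 h and T-47D at 3 h. The arrays lay on 13 slides and fell into 2 scan batches. The second batch held 6 arrays, which were HCC1954 at 30 min, MDA-MB-231 and ZR-75-30 at 30 min and 6 h, and T-47D at 3 h. All 6 epithelial markers examined (EPCAM, KRT8, KRT18, KRT19, CDH1 and CLDN7) were well above background on all vehicle arrays of all 5 cell lines, and the leukocyte marker PTPRC and the fibroblast markers COL1A2 and DCN were so on 0 arrays. Other markers of these kinds were present. Of 5 immune and 7 fibroblast markers, 4 and 2 were well above background on all vehicle arrays of at least 1 cell line.

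The vehicle level of a probe is given below as the log2 of its processed Cy3 signal after scaling between arrays, as mean ± SD over the arrays of a cell line. It was tested between cell lines with limma where the probe was well above background on all vehicle arrays of at least 1 cell line, with p-values adjusted by Benjamini-Hochberg over all probes tested. Of the 5 genes, SNAI1, SNAI2, TWIST1 and ZEB2 passed this filter through 1 probe each, and ZEB1 and the second probes of SNAI2 and TWIST1 did not. ZEB2 passed it through MDA-MB-231 alone, so that a higher level there was fixed by the filter, and its p-values are given below from the fit without the filter. In limma SNAI1, SNAI2 and TWIST1 differed across the 5 cell lines (adjusted p = 5.13e-07, 4.12e-13 and 1.40e-15), as did 94.2% of all probes. Of the 10 differences between pairs of cell lines 8 passed for SNAI1, 9 for SNAI2 and 8 for TWIST1, beside 62.9% over all probes. The genes differed in the cell line in which they were highest. In arrays of whole cultures, fewer cells that carry a transcript and less of it in each cell cannot be told apart.

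**Figure D1:**
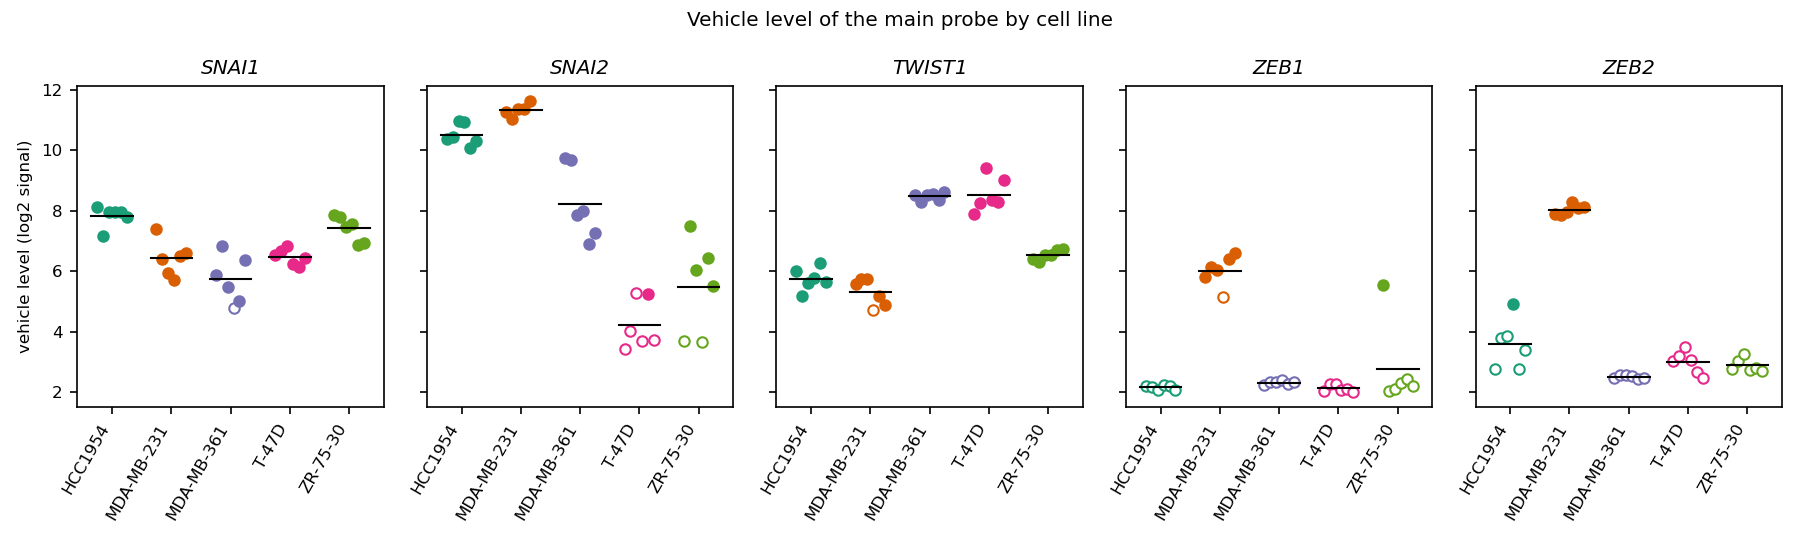
Vehicle level (log2 of the processed Cy3 signal) of the main probe of each gene, 1 point per array and cell line, with the mean of the arrays as a bar. Open points were not well above background and have no order among themselves. SNAI2 is highest in MDA-MB-231 and HCC1954, TWIST1 in T-47D and MDA-MB-361, SNAI1 in HCC1954 and ZR-75-30, and ZEB1 and ZEB2 stand out in MDA-MB-231.

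SNAI1, probed at chr20:48038577-48038636 (hg18, plus strand), was well above background on 29 of 30 vehicle arrays, and the differences between cell lines were the smallest of the 4 genes tested. In HCC1954 the vehicle level of SNAI1 had a lowest value of 7.16, a median of 7.96 and a highest of 8.13, and in ZR-75-30 these were 6.87, 7.51 and 7.88. T-47D ran from 6.16 over 6.48 to 6.83 and MDA-MB-231 from 5.71 over 6.46 to 7.41, while MDA-MB-361 ran from 4.80 over 5.68 to 6.85. The arrays of HCC1954 thus lay above those of T-47D and above 5 of the 6 arrays of MDA-MB-231, and overlapped with those of ZR-75-30. By mean level the order was HCC1954 (7.83 ± 0.34), ZR-75-30 (7.42 ± 0.43), T-47D (6.47 ± 0.25), MDA-MB-231 (6.43 ± 0.59) and MDA-MB-361 (5.73 ± 0.79; SD, n = 6 each). SNAI1 was 2.65-fold higher in HCC1954 than in MDA-MB-231 and 4.30-fold higher than in MDA-MB-361 (adjusted p = 0.000107 and 2.50e-07, limma). Neither HCC1954 and ZR-75-30 (difference 0.41 log2, adjusted p = 0.216) nor T-47D and MDA-MB-231 (0.05 lower in MDA-MB-231, adjusted p = 0.902, limma) differed beyond their spread. The differences of MDA-MB-361 from MDA-MB-231 and T-47D were near the threshold (adjusted p = 0.0360 and 0.0259, limma), and the first was lost under 5 of the 6 alternatives (adjusted p = 0.0699 to 0.227, limma) and the other with normexp (adjusted p = 0.161) or the slide as a random block (adjusted p = 0.0905, limma).

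SNAI2, also called Slug, had the widest range of levels. Its main probe (chr8:49993263-49993322, hg18, minus strand) passed background on every array of MDA-MB-231, HCC1954 and MDA-MB-361. ZR-75-30 had 4 of 6 such arrays, and T-47D had 1. In MDA-MB-231 the vehicle levels of SNAI2 were 11.26, 11.04, 11.39, 11.37 and 11.65 at 30 min, 1, 3, 12 and 24 h, and the spot at 6 h was marked as an outlier by the scanner software and left out. HCC1954 ran from 10.08 over a median of 10.41 to 10.96, and no array of it reached the lowest of MDA-MB-231. MDA-MB-361 held 9.76 and 9.68 at 30 min and 1 h and 7.86, 7.98, 6.91 and 7.27 at the later times. In ZR-75-30 the levels were 7.51, 6.04, 6.43 and 5.50 at 1, 3, 12 and 24 h, whereas the arrays at 30 min and 6 h, both of the second scan batch and on 1 slide, were not well above background at 3.69 and 3.67. T-47D was well above background at 12 h (5.25) only. By mean level the order was MDA-MB-231 (11.34 ± 0.22, n = 5), HCC1954 (10.52 ± 0.35), MDA-MB-361 (8.24 ± 1.21), ZR-75-30 (5.47 ± 1.54) and T-47D (4.23 ± 0.82; SD, n = 6 each). SNAI2 was 8.57-fold higher in MDA-MB-231 than in MDA-MB-361 (adjusted p = 2.22e-05) and 4.85-fold higher in HCC1954 than in MDA-MB-361 (adjusted p = 0.000528, limma). MDA-MB-231 and HCC1954 did not differ beyond the spread of the fit (difference 0.82 log2, adjusted p = 0.206), although with normexp background correction they did (0.78 log2, adjusted p = 0.0309, limma). The difference between ZR-75-30 and T-47D (1.24 log2, adjusted p = 0.0454) was lost under 75th percentile scaling (adjusted p = 0.106), normexp (adjusted p = 0.179), no filter on dim probes (adjusted p = 0.0632) and the slide as a block (adjusted p = 0.112), and within the first scan batch alone it was 2.34 log2 (adjusted p = 0.000298, limma).

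TWIST1 showed the opposite order to SNAI2 at its ends. The main probe (chr7:19122025-19122084, hg18, minus strand) was well above background on 29 of 30 vehicle arrays. The lowest, median and highest levels of TWIST1 were 7.89, 8.32 and 9.40 in T-47D, 8.28, 8.52 and 8.61 in MDA-MB-361 and 6.32, 6.54 and 6.74 in ZR-75-30. In HCC1954 they were 5.19, 5.71 and 6.26, and in MDA-MB-231 4.71, 5.37 and 5.76. All arrays of T-47D and MDA-MB-361 lay above all arrays of the other cell lines, and all arrays of ZR-75-30 lay above those of HCC1954 and MDA-MB-231. TWIST1 was 9.38-fold higher in T-47D and 9.01-fold higher in MDA-MB-361 than in MDA-MB-231 (adjusted p = 5.91e-14 and 9.04e-14), and 2.36-fold higher in ZR-75-30 than in MDA-MB-231 (adjusted p = 9.69e-06, limma). Neither T-47D and MDA-MB-361 (means 8.53 ± 0.56 and 8.48 ± 0.13, adjusted p = 0.827) nor HCC1954 and MDA-MB-231 (5.75 ± 0.36 and 5.30 ± 0.45, adjusted p = 0.0723, limma) differed beyond their spread.

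ZEB1 and ZEB2 were measured in MDA-MB-231 and hardly elsewhere. ZEB2 (probe at chr2:144862731-144862790, hg18, minus strand) had vehicle levels of 7.88 to 8.29 with a median of 8.03 in MDA-MB-231, and all 6 arrays were well above background. In MDA-MB-361, T-47D and ZR-75-30 it was so on 0 of 6 arrays, and in HCC1954 on 1, at 6 h, with a level of 4.92. ZEB2 was at least 12.1-fold higher in MDA-MB-231 than in MDA-MB-361, at least 10.2-fold higher than in T-47D and at least 11.2-fold higher than in ZR-75-30 (adjusted p = 6.32e-18, 5.51e-17 and 3.51e-17, limma, without the filter). Each bound is the mean of MDA-MB-231 over the mean of the lowest signals well above background on the arrays of the dim cell line, or of the probe's own signal where that was higher. The p-values come from the fit on the signals themselves, those not well above background included, and do not test the bounds. Against HCC1954, with 1 of 6 arrays measured, no fold is given (adjusted p = 1.05e-15, limma, without the filter).

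ZEB1 (probe at chr10:31852945-31853004, hg18, plus strand) was dimmer and, over all arrays, could be tested only without the filter on dim probes. Within the first scan batch alone ZEB1 passed that filter, through MDA-MB-231 alone. Its vehicle levels in MDA-MB-231 were 5.81, 6.15, 6.03, 6.41 and 6.60 at 30 min, 1, 3, 12 and 24 h, and the array at 6 h, which had the fewest probes above background, was not well above background at 5.14. The gene was not well above background on any array of HCC1954, MDA-MB-361 or T-47D, where the signals lay between 2.01 and 2.39. The level in MDA-MB-231 was at least 3.47-fold that in HCC1954, at least 2.99-fold that in MDA-MB-361 and at least 2.51-fold that in T-47D (adjusted p = 3.32e-10, 7.71e-10 and 2.78e-10, limma, without the filter). As for ZEB2, the p-values rest partly on signals not well above background and do not test the bounds. In ZR-75-30 ZEB1 was well above background at 30 min (5.54) and on no other array (2.03 to 2.42). That array shared its slide with the arrays of MDA-MB-231 at 30 min and 6 h, and the part of the slide in this value was not tested.

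The promoter windows of ZEB1 and ZEB2 are shown because both genes were well above background in MDA-MB-231 and on at most 1 array of any other cell line, and because both encode proteins that bind E-boxes. Windows of SNAI1, SNAI2 and TWIST1 are not shown. Each line gives the 250 bases before the RefSeq start in GRCh38.p14, 5′ to 3′ on the strand of the gene, at chr10:31318167-31318416 on the plus strand for ZEB1 (the most upstream of 7 starts) and at chr2:144520120-144520369 on the minus strand for ZEB2. Capitals mark the E-box CAGGTG, searched on both strands as CAGGTG and CACCTG.
ZEB1: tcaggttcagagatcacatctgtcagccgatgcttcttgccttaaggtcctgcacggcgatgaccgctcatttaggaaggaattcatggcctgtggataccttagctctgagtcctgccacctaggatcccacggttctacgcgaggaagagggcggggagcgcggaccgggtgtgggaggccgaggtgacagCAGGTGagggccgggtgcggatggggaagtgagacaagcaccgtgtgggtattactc
ZEB2: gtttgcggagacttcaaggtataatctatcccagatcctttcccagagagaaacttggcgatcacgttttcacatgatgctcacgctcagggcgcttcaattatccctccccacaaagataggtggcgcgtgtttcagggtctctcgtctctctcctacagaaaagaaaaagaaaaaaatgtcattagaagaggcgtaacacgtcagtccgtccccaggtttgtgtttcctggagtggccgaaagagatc
The ZEB1 window held 1 such E-box, whose first base lay 57 bases before the start, and the ZEB2 window held 0. Of the other ZEB1 windows 1 held 2. Among the 35116 windows of all genes, 17.5% held at least 1 and 2.53% at least 2, and the matches describe these letters only.

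The second probes of SNAI2 and TWIST1 were dim, and neither passed the filter. For A_24_P937139 of SNAI2, MDA-MB-231 had 5 of 6 arrays above background, HCC1954 had 2, T-47D had 1, and MDA-MB-361 and ZR-75-30 had 0. The difference of HCC1954 minus MDA-MB-231 was -0.31 log2 without the filter (adjusted p = 0.641) and -0.46 log2 within the first scan batch alone (adjusted p = 0.0373, limma). For A_23_P71073 of TWIST1, MDA-MB-361 had 5 such arrays, T-47D had 1 and the other cell lines had 0.

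Over the time in culture no vehicle level of the 4 genes tested passed the test. At 12 to 24 h against the first hour, over all cell lines, the differences were -0.41 log2 for SNAI1, -0.27 for SNAI2, 0.15 for TWIST1 and -0.15 for ZEB2 (adjusted p = 0.565, 0.897, 0.840 and 0.838, limma), and 0.0429% of all probes passed. Within single cell lines, at 3 to 24 h against the first hour, 0 of 20 differences passed, against 0.00644% over all probes, and 3 had an unadjusted p under 0.05. SNAI2 in MDA-MB-361 was the largest of these at -2.21 log2 (SE 0.73, unadjusted p = 0.00622, adjusted p = 0.528, limma). All 4 later arrays lay below both early ones. The BMP7 channel of the same arrays held 10.27, 10.38, 8.61, 8.79, 7.44 and 7.93 from 30 min to 24 h, the spot at 30 min being marked as an outlier. With the first scan batch alone, which holds all arrays of MDA-MB-361, the same difference had an adjusted p of 0.0176 (limma). SNAI1 in MDA-MB-361 (-0.96 log2, adjusted p = 0.642) and TWIST1 in T-47D (0.69 log2, adjusted p = 0.673, limma) were the others. ZEB2 outside MDA-MB-231 and SNAI2 in T-47D were well above background on at most 1 of 6 vehicle arrays of a cell line. The tests there, and that of ZEB2 over all cell lines, cannot show whether the level moved.

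To set the EMT factors beside their usual partners and targets, the other genes of the pathway were counted in MDA-MB-231, where ZEB1 and ZEB2 were highest. A gene counted as higher or lower if it differed from each of the other 4 cell lines in limma, as 9.66% and 12.4% of all probes did. Of 20 mesenchymal genes tested 13 were higher and 2 lower, with a median difference of 3.66 log2 against -0.05 over all probes. The cytoskeletal protein vimentin (VIM) had a mean of 16.89 in MDA-MB-231 and 4.94 to 14.32 in the other cell lines, and the receptor kinase AXL 15.52 against 5.18 to 8.27. Caveolin (CAV1) had 15.21 against 4.62 to 14.16, and the cadherin CDH11 11.95, with all 6 arrays above background in HCC1954 too and 0 or 2 in the luminal lines. MMP9 (6.80 in MDA-MB-231 and 8.75 in T-47D) and COL1A1 were the genes that were lower. Of 35 epithelial targets 27 were lower and 1, the polarity gene PALS1, was higher, with a median of -3.20 log2. E-cadherin (CDH1) had a mean of 8.04 in MDA-MB-231 and 14.65 to 16.73 elsewhere, and P-cadherin (CDH3) 5.37 against 11.86 to 14.45. Of 14 epithelial regulators 10 were lower and 0 higher, with a median of -5.43 log2. The pioneer factor FOXA1 had a mean of 4.43 in MDA-MB-231, where 3 of 6 arrays were well above background, against 13.33 to 15.37, and the repressor of ZEB1 OVOL1 was well above background on 0 arrays of MDA-MB-231 against 9.56 to 12.10. Of 7 fibroblast markers COL1A2, COL3A1 and DCN were well above background on 0 arrays there, COL1A1 on 1, and LUM and PDGFRB on 5 of 6, while THY1 was so on all arrays of every cell line.

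**Figure D2:**
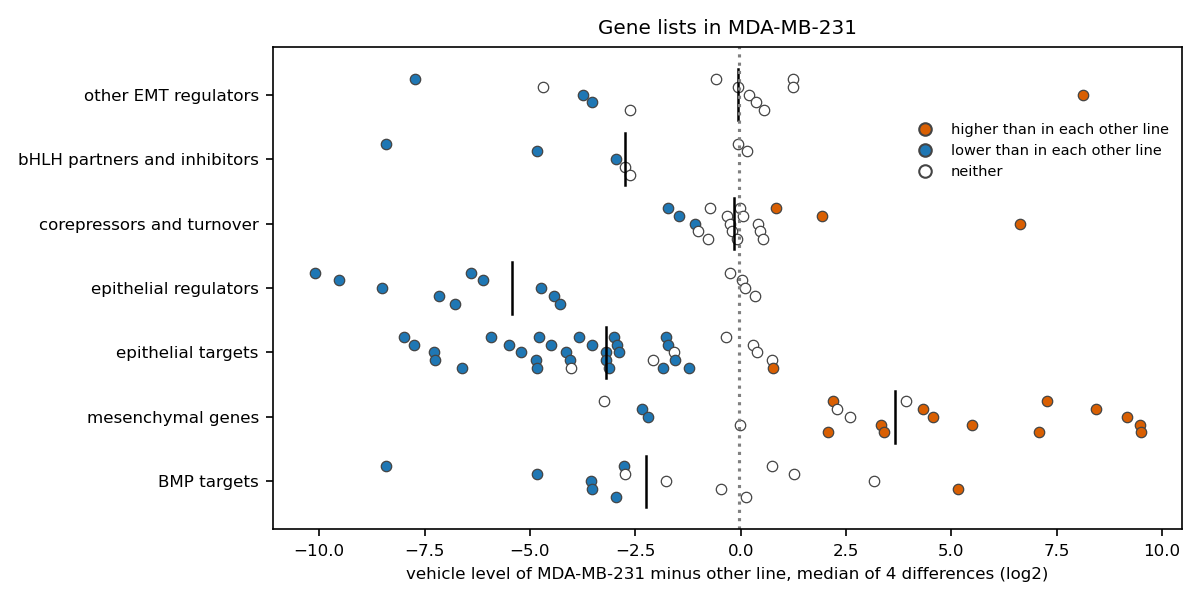
Difference of vehicle level between MDA-MB-231 and the other cell lines (median of 4 differences, log2) for each tested gene of the lists, with list medians as black bars and the median of all probes as a dotted line. Signals not well above background are included. Mesenchymal genes lie mostly to the right (median 3.66) and epithelial targets and regulators to the left (medians -3.20 and -5.43).

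The lists closest to the function of the 5 factors moved less uniformly. Of 13 other EMT regulators HMGA2, a chromatin protein, was higher in MDA-MB-231 (10.92 against 8.86 in HCC1954 and 0 arrays above background in the other cell lines), and GSC, SOX4 and LEF1 were lower. SOX4 had a mean of 9.86 in MDA-MB-231 and 13.12 to 14.07 elsewhere. Of 18 corepressors and turnover factors 3 were higher and 3 lower. The lysyl oxidase LOXL2, which binds SNAI1, had a mean of 13.91 in MDA-MB-231 and of 12.23 in HCC1954, and the kinase GSK3B, which marks SNAI1 for degradation, 8.45 against 8.88 to 10.23. Of 7 basic helix-loop-helix partners and inhibitors 0 were higher and 3, ID1, ID2 and ID4, were lower. ID1 had a mean of 12.26 in MDA-MB-231 and 14.56 to 15.63 elsewhere, and ID4 was well above background on 0 of 6 arrays there and on all arrays of the other cell lines. Of 14 BMP targets, which share the ID genes with that list, 1, the BMP antagonist NOG, was higher and 6 were lower.

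The response to BMP7 was read as the log2 ratio of BMP7 to vehicle on spots well above background in both channels and not marked as outliers, here called measurable. The mean ratio of a cell line was tested against 0 with limma where at least 4 spots were measurable. Of the 17 tests over the 7 probes 2 passed, both upward, SNAI2 in MDA-MB-361 and TWIST1 in ZR-75-30. Over all probes 5.69% of such tests passed upward and 6.33% downward.

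**Figure D3:**
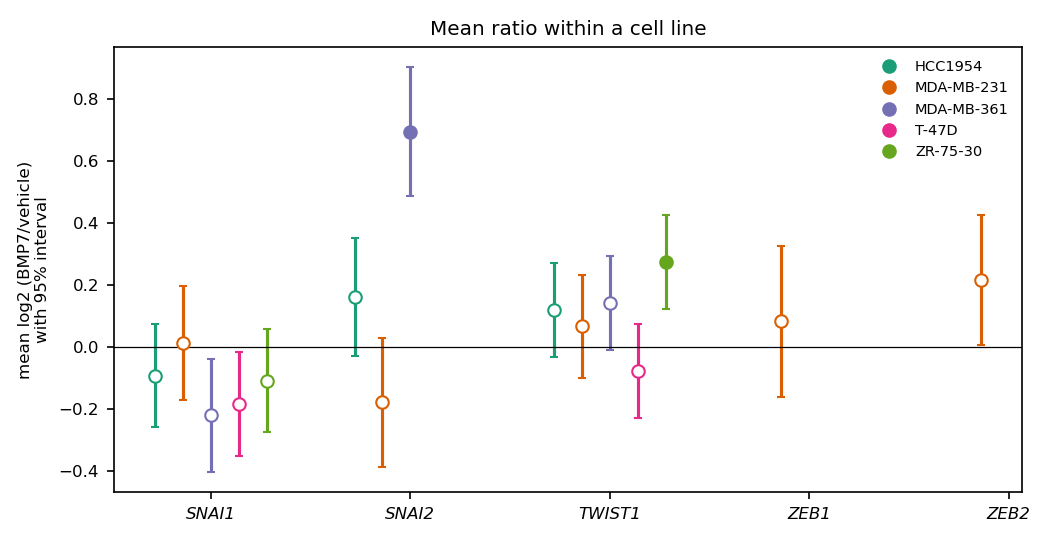
Mean log2 ratio of BMP7 to vehicle within each cell line for the main probes, with the 95% interval of limma; filled points passed the test at an adjusted p of 0.05. The intervals of SNAI2 in MDA-MB-361 (0.69) and TWIST1 in ZR-75-30 (0.27) lie above 0.

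SNAI2 in MDA-MB-361 had a ratio above 0 at every measurable time. The ratios were 0.70, 0.76, 0.81, 0.53 and 0.67 log2 at 1, 3, 6, 12 and 24 h, and the outlier-marked spot at 30 min held 0.51. The mean of 0.69 log2 (SE 0.10, 95% interval 0.49 to 0.90, n = 5, adjusted p = 0.000307, limma) is a 1.62-fold rise. It was already at its later size at 1 h, so that the contrast of time cannot separate it from a constant dye effect of the probe. With normexp and no loess correction the value was 0.68 with an adjusted p of 0.0979 (limma), and under the other alternatives it kept its call, with 0.66 to 0.74 when single arrays of MDA-MB-361 were left out.

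In ZR-75-30 SNAI2 was measurable on 3 arrays, below the 4 needed for the test, with ratios of 1.01, 0.90 and 0.82 log2 at 3, 12 and 24 h. The value at 3 h was the only 2-fold event of the 7 probes. The outlier-marked spot at 1 h held 0.90, and with it the mean was 0.91 log2 (adjusted p = 1.50e-05, limma), an alternative added after the data were seen. The 2 spots not well above background, at 30 min and 6 h, held 0.43 and 0.79. In T-47D the 1 measurable spot, at 12 h, held 0.30, and 4 of the 5 spots not well above background held 0.42 to 0.66 and the array at 3 h -0.30. In HCC1954 SNAI2 ratios were 0.47, 0.20, -0.05, -0.12, 0.16 and 0.31 from 30 min to 24 h (mean 0.16, 95% interval -0.03 to 0.35, adjusted p = 0.255, limma). In MDA-MB-231 they were -0.09, 0.12, -0.07, -0.13 and -0.71 at 30 min, 1, 3, 12 and 24 h (mean -0.18, 95% interval -0.39 to 0.03, adjusted p = 0.247, limma), and the value at 24 h was the lowest. Over the 4 cell lines with at least 3 measurable spots the order of the SNAI2 ratios was the reverse of that of the vehicle levels, and T-47D, with the lowest level and 1 measurable spot, lay outside it; this is a description, and no test was made of it. The second SNAI2 probe was measurable on 4 arrays of MDA-MB-231 and had a mean of 0.02 log2 (adjusted p = 0.943, limma).

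**Figure D4:**
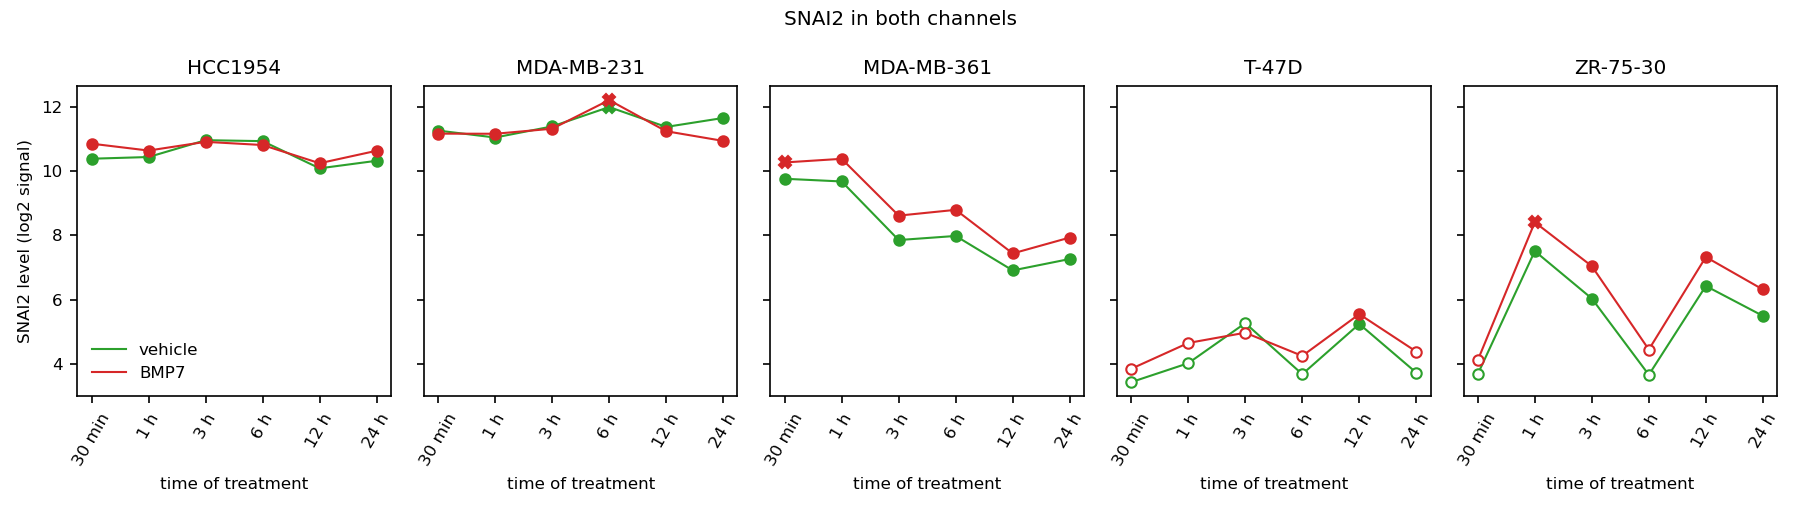
SNAI2 level (log2 of the processed signal) in the vehicle and the BMP7 channel by time of treatment in each cell line. Open points were not well above background and crosses were marked as outliers. In MDA-MB-361 and ZR-75-30 the BMP7 channel lies above the vehicle channel at every time, and in MDA-MB-361 both channels are higher in the first hour than later.

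TWIST1 in ZR-75-30 had ratios of 0.06, 0.54, 0.23, 0.68, -0.02 and 0.16 log2 from 30 min to 24 h. The mean of 0.27 log2 (SE 0.07, 95% interval 0.12 to 0.43, n = 6, adjusted p = 0.0162, limma) is a 1.21-fold rise that came mostly from 1 h and 6 h. The call was lost without the array at 1 h (0.22, adjusted p = 0.0628), without the array at 6 h (0.19, adjusted p = 0.0802) and within the first scan batch alone (0.23, adjusted p = 0.0779, limma). The call was also lost with normexp and no loess correction (0.16, adjusted p = 0.140, limma). In the other cell lines the mean ratios of TWIST1 lay between -0.08 in T-47D and 0.14 in MDA-MB-361 and none passed. The second TWIST1 probe had a mean of -0.05 log2 in MDA-MB-361 (adjusted p = 0.747, limma).

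SNAI1 had mean ratios of -0.22 log2 in MDA-MB-361 (95% interval -0.40 to -0.04), -0.18 in T-47D (-0.35 to -0.02), -0.11 in ZR-75-30, -0.09 in HCC1954 and 0.01 in MDA-MB-231. None passed, the lowest adjusted p being 0.101 (limma). The lowest single SNAI1 ratio was -0.68 log2, in MDA-MB-361 at 24 h. ZEB2 in MDA-MB-231 had ratios of 0.24, 0.32, 0.38, -0.04, 0.54 and -0.15 log2 from 30 min to 24 h, with a mean of 0.22 (95% interval 0.01 to 0.42, adjusted p = 0.166, limma). ZEB1 in MDA-MB-231 had 0.02, 0.02, 0.25, 0.45 and -0.33 log2 at 30 min, 1, 3, 12 and 24 h, with a mean of 0.08 (95% interval -0.16 to 0.33, adjusted p = 0.674, limma). The ratios of both genes were lowest at 24 h, and the width of the intervals does not show that either gene stayed level.

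**Figure D5:**
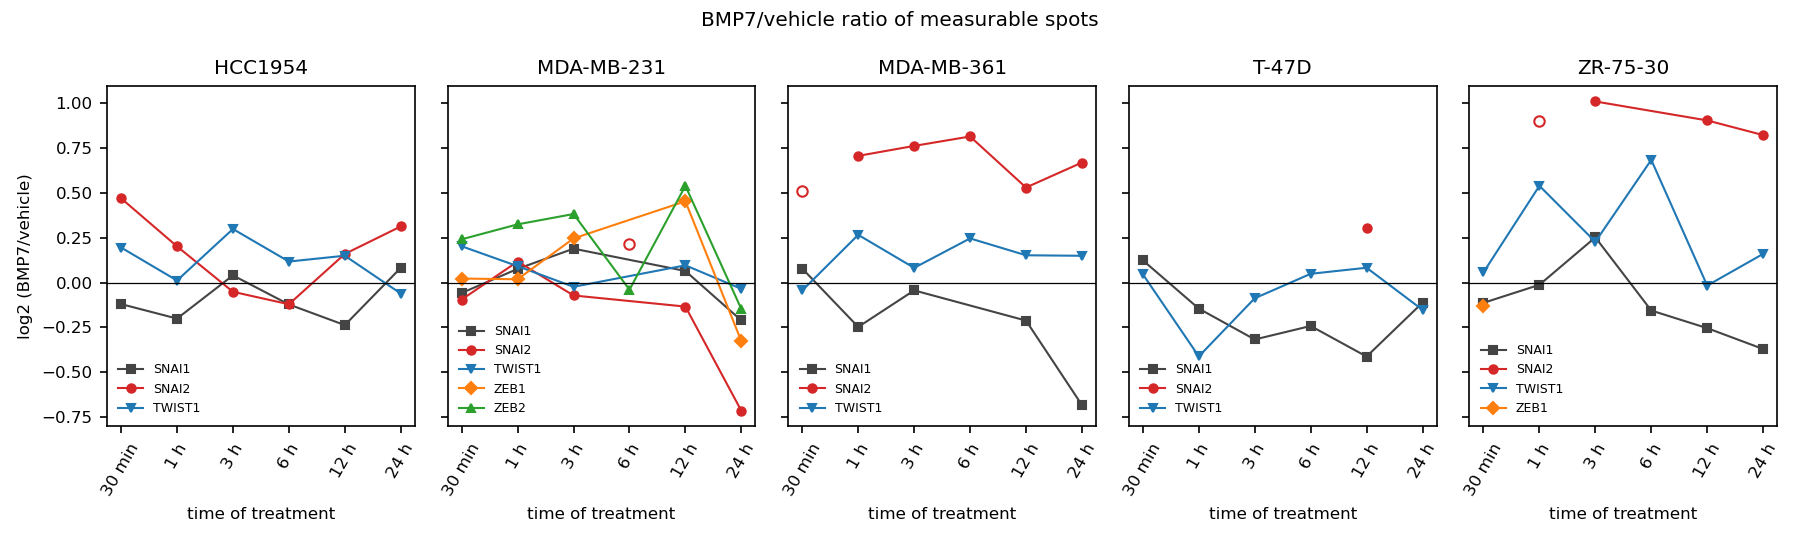
Log2 ratio of BMP7 to vehicle by time of treatment for the main probes on measurable spots in each cell line; open circles are SNAI2 spots marked as outliers. SNAI2 stays between 0.53 and 1.01 on measurable spots of MDA-MB-361 and ZR-75-30, TWIST1 reaches 0.54 and 0.68 in ZR-75-30 at 1 and 6 h, and SNAI1 is at -0.68 in MDA-MB-361 at 24 h.

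Whether the response of a gene differed between cell lines was tested for 23 pairs, and 3 passed, against 4.7% over all probes. The comparison was added after the data were seen. The SNAI2 ratio was 0.87 log2 lower in MDA-MB-231 (mean -0.18) than in MDA-MB-361 (0.69; adjusted p = 0.00495), and 0.53 lower in HCC1954 (0.16) than in MDA-MB-361 (adjusted p = 0.0314, limma). The TWIST1 ratio was 0.35 lower in T-47D (-0.08) than in ZR-75-30 (0.27, adjusted p = 0.0472, limma). The difference between MDA-MB-231 and MDA-MB-361 lost its call with normexp and no loess (-0.47 log2, adjusted p = 0.513, limma) and kept it with the slide as a block (adjusted p = 0.0138, limma), where the other pairs lost theirs (adjusted p = 0.0633 and 0.0847, limma). The TWIST1 difference also lost its call within the first scan batch alone (-0.30 log2, adjusted p = 0.116, limma) and when any single array of MDA-MB-361, or that of ZR-75-30 at 1, 3, 6 or 24 h, was left out (adjusted p up to 0.108, limma), and the difference between HCC1954 and MDA-MB-361 lost it without the array of MDA-MB-361 at 1, 3, 6 or 24 h (adjusted p up to 0.0620, limma).

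With the cell lines as units, the mean ratio was -0.12 log2 for SNAI1 (SE 0.05, 5 cell lines, adjusted p = 0.328), 0.40 for SNAI2 (SE 0.16, 4 cell lines, adjusted p = 0.284) and 0.10 for TWIST1 (SE 0.06, 5 cell lines, adjusted p = 0.440, limma). None of the 3 passed, against 0.701% over all probes, with unadjusted p-values of 0.0523, 0.0358 and 0.115 in limma. Between 3 to 24 h and the first hour the ratio moved by -0.09, -0.22 and 0.01 log2 for SNAI1, SNAI2 and TWIST1 (adjusted p = 0.507, 0.227 and 0.929, limma), and 0 of 3 passed, against 7.39% over all probes. ZEB1 and ZEB2 were measurable in too few cell lines for either test. SNAI2 was measurable on 20 arrays, SNAI1 on 28, TWIST1 on 29, and ZEB1 and ZEB2 on 6 each. Of all measurable spots of the 7 probes 1 reached a 2-fold change, against 0.798% over all probes.

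The counts for the pathway genes within cell lines stand beside 5.69% upward and 6.33% downward over all probes. Of 31 tests of basic helix-loop-helix partners and inhibitors 12 passed upward and 1 downward, and all 12 were ID genes. ID1, which binds the partners of TWIST1, rose by 0.81 log2 as a mean over 5 cell lines (adjusted p = 0.0245, limma). In MDA-MB-231, where the SNAI2 mean was -0.18, ID1 rose by 1.39 and ID3 by 1.18 log2 (adjusted p = 0.000371 and 0.000243, limma), and ID2 passed too (adjusted p = 0.000126, limma). In T-47D none of ID1, ID2, ID3 and ID4 passed (0.45, 0.09, 0.12 and 0.09 log2). Of 59 tests of BMP targets, which include the ID genes, 18 passed upward and 0 downward, and without the ID genes 6 of 40 passed upward. Over 171 tests of epithelial targets 14 passed upward and 13 downward, so the list went both ways. Among these, CDH1 fell by 0.39 log2 in MDA-MB-361 and by 0.36 in ZR-75-30 (adjusted p = 0.00651 and 0.0112, limma). It held 0.04, -0.13 and 0.13 in HCC1954, MDA-MB-231 and T-47D, and a link to the ratios of the SNAI and ZEB factors was not tested. As a mean over cell lines 1 of 35 epithelial targets passed, the tight junction gene CLDN3, which fell by 0.37 log2 (adjusted p = 0.0252, limma). Of 80 tests of mesenchymal genes 0 passed upward and 4 downward, and of 52 tests of other EMT regulators 1 and 4. Of 62 tests of epithelial regulators 8 passed upward and 4 downward. The upward calls include the 1 probe of the mammary factor ELF5 in HCC1954, MDA-MB-231, MDA-MB-361 and ZR-75-30. ELF5 had a mean ratio of 0.81 log2 over cell lines (adjusted p = 0.0305, limma). Its change between the first hour and later did not pass (0.29 log2, adjusted p = 0.239, limma). A constant dye effect of this probe therefore cannot be told apart from an effect of BMP7. Of 89 tests of corepressors and turnover factors 5 passed upward and 4 downward.

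Genes whose vehicle level ran much like that of a factor over the 30 arrays were, by Pearson correlation among 13947 named genes, BAIAP2L1 (r = 0.869), RIPK2 (0.868) and ADA (0.853) for SNAI1. For SNAI2 they were EVA1A (r = 0.936) and CCN3 (0.929) over 29 arrays, for TWIST1 PNPLA7 (0.966), TMEM276 (0.961) and KANK3 (0.961), and for ZEB2 ANKRD1 (0.973), TM4SF19 (0.971) and IGFBP1 (0.970). The arrays of a cell line share their cells, so these values describe 5 cell lines more than 30 points. ZEB2 was well above background on 7 of the 30 vehicle arrays, 6 of them of MDA-MB-231. Its correlations rest on that cell line being high and on dim signals without order, and carry no weight. ZEB1 did not meet the level needed for this comparison.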

How the data were processed

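Each of the 30 arrays gave 1 file of scanner output, made per the file headers with Feature Extraction 9.5.1.1, whereas the study's methods name another version. The authors deposited processed intensity values, background-corrected and dye-normalized within arrays, a log10 ratio of Cy5 (BMP7) over Cy3 (vehicle) and flags for each spot, and a table of log2 ratios (the series matrix), used as an alternative. Vehicle levels were the log2 of processed Cy3 intensity after Aquantile scaling between arrays. Ratios were the deposited log10 ratio on the log2 scale with each array's median set to 0. Control and outlier-marked spots were left out and spots of a probe averaged. The tests were run with limma 3.58.1 in R 4.3.3 on all probes, called at a Benjamini-Hochberg adjusted p under 0.05, and were checked on simulated data. The mean over cell lines needed 3 measurable spots in each of 3 lines, and the test over time 1 early and 2 late spots in each of 2 lines. A gene's main probe was that well above background on the most vehicle arrays, and at most 4 called genes of a list, those with the largest fold, were named besides counts of 5 or fewer; other list genes were chosen after their values were seen. Alternatives were 75th percentile scaling, normexp (offset 50) with or without loess, no filter, all spots, scan batch, slide as a random block, time point as a block and leaving out lines or arrays. Members and lists were chosen with earlier results of these data known. Probe positions are those of the files (hg18), and 27745 probes were matched to RefSeq names. Of the genes most like a member in vehicle level, 3 for each by the rule, 1 is not reported here.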

Additional observations from a re-analysis of the deposited data

Results flagged for a closer look

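Of 35 groups of arrays in which the lowest and highest value were compared with the rest, 1 held an array that stood apart, and chance gives about 1 in 20. It was the vehicle level of SNAI1 in HCC1954 at 1 h, which was 7.16 while the other 5 arrays lay between 7.80 and 8.13.

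The response to BMP7 differed between cell lines for 3 of the 23 pairs tested, beside 4.7% over all probes, and 0 remained with normexp and no loess and 1 with the slide as a block. The SNAI2 ratio was different by -0.87 log2 in MDA-MB-231 against MDA-MB-361 (adjusted p = 0.00495, limma) and by -0.53 log2 in HCC1954 against MDA-MB-361 (adjusted p = 0.0314, limma). The TWIST1 ratio was different by -0.35 log2 in T-47D against ZR-75-30 (adjusted p = 0.0472, limma).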

How the results depend on the processing

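The vehicle comparison across cell lines called 4 probes, and 7 without the filter on dim probes, beside 94.2% of all probes with the filter. ZEB2 is among the 4 and passed the filter through MDA-MB-231 alone, so its call there carries no weight. Within cell lines 2 ratios were called, against 5 with all spots and 1 in the first scan batch alone. Leaving out single arrays gave 1 to 3. With normexp and no loess 1 ratio was called, TWIST1 in MDA-MB-361, and neither of the 2 kept its call. Between pairs of cell lines 3 were called, against 0 with no loess, 5 with outlier-marked spots kept, 1 with the slide as a block and 1 to 3 with single arrays left out. The mean over cell lines called 0 probes and 1 with no loess, which was SNAI2 (0.44 log2, adjusted p = 0.0217, limma). The 2-fold events numbered 1, against 7 with all spots and 0 with normexp and loess, with the series matrix values or at 3-fold. The vehicle level over time within cell lines called 0 and, in the first scan batch alone, 1. Calls that arose under 1 alternative were TWIST1 in MDA-MB-361 with no loess (0.36, adjusted p = 0.00218), SNAI1 in MDA-MB-361 without 30 min (-0.30, adjusted p = 0.0479) and SNAI1 in T-47D with the series matrix values (-0.24, adjusted p = 0.0455, limma). Of the values compared across alternatives 562 kept direction and call, 40 lost a call, 6 gained one and 16 changed sign, none of these 16 being called; the causes were not tested.

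The sign changed with no loess for the ratios of SNAI1 in HCC1954 (0.000993) and MDA-MB-231 (-0.17), SNAI2 in MDA-MB-231 (0.21 and, on the second probe, -0.12) and TWIST1 in HCC1954 (-0.0190) and MDA-MB-231 (-0.0844). It changed for SNAI1 in MDA-MB-231 with all spots (-0.0444), normexp and loess (-0.0752) and the series matrix values (-0.0206), for the second SNAI2 probe in MDA-MB-231 with the series matrix values (-0.0141) and for the second TWIST1 probe in MDA-MB-361 with normexp and loess (0.0470). The TWIST1 ratio over time was -0.00134 in the first batch and between -0.0221 (without T-47D) and 0.0474 (without MDA-MB-231) with single cell lines left out. Vehicle differences changed sign for SNAI1 between MDA-MB-231 and T-47D (0.0192, normexp), TWIST1 between MDA-MB-361 and T-47D (0.12, first batch) and ZEB2 over time (0.0169, normexp).

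Over all probes, the mean over cell lines called 180 probes (77.2% higher), against 4 with all spots, 2176 with no loess (99.9% higher), and 45, 12, 105 and 13 without HCC1954, MDA-MB-231, MDA-MB-361 and ZR-75-30; the share higher was 64.6% with normexp and loess and 65.6% with the series matrix. The ratio over time called 2011 (55.5% higher), against 998 with all spots, 1206 with normexp and loess, 2 with no loess (100% higher), 8 in the first batch, 1271 with a batch term, 1001 against 30 min alone, and 1304, 8 and 6 without HCC1954, T-47D and ZR-75-30. Ratios within cell lines called 15065 (47.3% higher), against 6137 with no loess (91.3% higher), and 33.9% were higher with the series matrix. Pairs of ratios called 10851, against 134 with no loess, 4537 with the slide as a block, 7032 and 5389 without MDA-MB-361 at 3 and 12 h and 16702 without ZR-75-30 at 30 min, and 17102 with the time point as a block. The 2-fold events were 6101, against 22869 with all spots, 3043 with normexp and loess, 27334 with no loess and 1026 at 3-fold. Vehicle levels over time called 12, against 19 with 75th percentile scaling, 60 with a batch term and 87 in the first batch, and within cell lines 9, against 5, 31 and 710, with 26 by normexp and 60 without the filter. The time point as a block, added after the data were seen, changed no call of the 5 genes. It called 32 of 40 vehicle pairs of 4 genes, 2 ratios within and 3 between cell lines. The 7 ZEB2 pairs carry no weight. No paired analysis was possible beyond BMP7 and vehicle within each array, as each cell line and time had 1 array without replicate numbers. The number of arrays limits the precision, and dim spots have no order.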

Other observations

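The other markers are given as values. KRT5, a basal keratin, had a mean vehicle level of 12.74 in HCC1954, and the endothelial markers PECAM1 (8.74, 6 of 6 arrays) and CDH5 (5 of 6 arrays) were well above background there.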
